A study of Mus musculus with 48 samples.

Results

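Long intergenic non-coding RNAs (lincRNAs) are transcripts without a long open reading frame whose genes lie, by the name of the type, apart from protein-coding genes. The 268 lincRNAs described here were chosen by their counts: they are the genes typed as lincRNA by GENCODE M21 with a mean of at least 10 raw counts over 48 amygdala libraries, out of 3763 lincRNAs and 48440 genes of the count table. A further 3 lincRNAs above that mean, Gm42418, Ino80dos and Mkln1os, were left out by name. Just inside the threshold lay Gm42787 with a mean of 10.1 counts and Gm26734 with 10.2 counts, and just outside it lay 4930580E04Rik with 9.71 and Gm13063 with 9.77 counts.

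The libraries were made from total RNA of the amygdala, the brain region that processes fear and emotion, of single male C57BL/6 mice aged 4 months (bred on a C57BL/6N background), with the tissue of both hemispheres pooled per mouse. The mice were wild-type (Tph2+/+), heterozygous (Tph2+/-) or homozygous (Tph2-/-) for a constitutive inactivation of Tph2, the gene of the enzyme that makes serotonin in the brain, and were littermates from Tph2+/- parents. Pups of each genotype either were reared by the routine of the facility (C, labelled as no stress) or were separated from the dam for 3 hours per day from postnatal day 2 to 15 (maternal separation, MS), which gave 6 groups of 8 mice. All mice were housed singly after weaning and went through behavioural tests before the tissue was taken, so the C mice are not untested animals. The inactivation is constitutive, and the serotonin neurons that express Tph2 have their cell bodies in the brainstem, not in the amygdala.

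Some well-studied lincRNAs act in the nucleus. Malat1 is an abundant RNA of nuclear speckles in neurons, and Xist coats the inactive X chromosome of female cells. Other lincRNAs are host transcripts of small RNAs or regulate a neighbouring gene. For most genes of this type, the ones named Gm followed by a number and the ones named Rik, no function is known. Of the 268 lincRNAs, 206 had a Gm name and 55 a Rik name.

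The libraries held between 609489 and 6296568 counts on genes, and between 75.8% and 97.6% of the uniquely placed reads, with a median of 97.5%, were listed as lying on no gene. Tph2 itself had 0 or 1 count in every library and therefore gave no check of the genotype. In 4 libraries, mouse 1 of Tph2+/+ C, mouse 2 of Tph2+/+ MS, mouse 2 of Tph2+/- C and mouse 1 of Tph2-/- C, Gm42418 took over 500000 counts. Outside Gm42418 and Lars2, the 268 lincRNAs took between 5.72% and 7.40% of the counts of a library. The libraries were made with a kit that keeps the strand of the RNA, but the strand setting of the counting is not given in the sources used here. Few counts were placed on the gene models of defining transcripts of brain tissue. Snap25 of neurons had a mean of 8.50 counts, Slc17a7 of excitatory neurons 2.10, Gad1 of inhibitory neurons 4.79 and Mbp of myelin 8. Of the 6 neuronal markers and the 6 amygdala markers looked at, 1 and 0 reached a mean of 10 counts. The same held for 0 of 4 astrocyte, 2 of 4 oligodendrocyte, 3 of 4 microglial, 0 of 3 endothelial, 1 of 4 choroid plexus, 0 of 4 hypothalamic and 0 of 3 thalamic markers. In this table, reads of a lincRNA therefore cannot be told apart from reads of a gene on the opposite strand, and a level given below is the level of counts placed on the lincRNA model.

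Stretches of 7 of the lincRNAs and of the gene opposite are shown first, since the opposite gene is the feature that most of the 268 share. They come from the GENCODE M21 transcripts on GRCm38 and are written 5′ to 3′ on the strand of each gene. Capitals mark bases that lie in an exon of both genes, and lower-case bases precede them in the lincRNA transcript. Gm39214 is shown with Itfg1 at chr8:85764235-85764294, where Gm39214 is on the plus strand. Gm17300 is shown with the small nucleolar RNA host gene Snhg3 at chr4:132351933-132351992, with Gm17300 on the plus strand, and Gm26953 with Miat at chr5:112224302-112224356, with Gm26953 on the plus strand. Gm26906 is shown with Meg3 at chr12:109569330-109569429, with Gm26906 on the minus strand, and Malat1 with Gm37376 at chr19:5802334-5802393, with Malat1 on the minus strand. Gm26798, which had the smallest p among the 268 in several comparisons below, is shown with Ppp6r2 at chr15:89211750-89211779, with Gm26798 on the minus strand. The start of Gm26981 at chr7:92729840-92729939 on the plus strand is in lower case because no gene lies opposite.
Gm39214: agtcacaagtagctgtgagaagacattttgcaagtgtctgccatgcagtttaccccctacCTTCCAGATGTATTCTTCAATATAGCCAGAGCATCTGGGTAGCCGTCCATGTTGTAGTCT
Itfg1: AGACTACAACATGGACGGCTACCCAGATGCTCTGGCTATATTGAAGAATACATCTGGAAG
Gm17300: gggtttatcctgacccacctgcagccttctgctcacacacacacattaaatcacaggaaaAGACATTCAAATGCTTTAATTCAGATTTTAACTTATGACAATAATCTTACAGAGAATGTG
Snhg3: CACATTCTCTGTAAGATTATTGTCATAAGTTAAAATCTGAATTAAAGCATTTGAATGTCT
Gm26953: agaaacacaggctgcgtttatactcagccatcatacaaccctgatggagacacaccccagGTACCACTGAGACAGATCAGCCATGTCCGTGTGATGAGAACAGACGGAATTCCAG
Miat: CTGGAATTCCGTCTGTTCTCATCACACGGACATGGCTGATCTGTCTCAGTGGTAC
Gm26906: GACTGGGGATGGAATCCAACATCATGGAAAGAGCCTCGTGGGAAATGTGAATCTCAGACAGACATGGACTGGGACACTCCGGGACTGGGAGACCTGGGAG
Meg3: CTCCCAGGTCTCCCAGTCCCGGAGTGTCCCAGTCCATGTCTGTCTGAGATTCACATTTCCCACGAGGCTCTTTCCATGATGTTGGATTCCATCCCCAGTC
Malat1: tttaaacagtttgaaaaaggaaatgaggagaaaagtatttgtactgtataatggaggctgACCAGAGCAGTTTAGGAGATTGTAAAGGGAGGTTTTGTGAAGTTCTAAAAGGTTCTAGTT
Gm37376: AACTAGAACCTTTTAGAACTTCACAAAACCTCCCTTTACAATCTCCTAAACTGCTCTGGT
Gm26798: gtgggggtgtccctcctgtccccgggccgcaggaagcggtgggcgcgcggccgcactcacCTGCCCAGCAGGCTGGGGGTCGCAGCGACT
Ppp6r2: AGTCGCTGCGACCCCCAGCCTGCTGGGCAG
Gm26981: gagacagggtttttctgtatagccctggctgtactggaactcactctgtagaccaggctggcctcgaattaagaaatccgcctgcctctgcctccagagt
In each pair the capitals of the opposite gene are the reverse complement of the capitals of the lincRNA, so that every read from this stretch is assigned to one gene or the other by its strand alone.

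Of the 268 lincRNAs, 71.6% had exonic bases opposite an exon of another gene. A further 46 lay opposite a gene without sharing exonic bases with it, and 30 had no gene opposite. An opposite exon was found for 523 (13.9%) of all 3763 lincRNAs and for 328 (9.39%) of the 3492 below a mean of 10 counts. The share rose with the count, in classes that do not hold the lincRNAs left out by name. It was 5.55% of the 2252 lincRNAs below a mean of 0.1 counts, 11.4% of the 840 from 0.1 to 1, 26.6% of the 387 from 1 to 10, 62.8% from 10 to 100 and 87.5% of the 96 from 100 upwards. An opposite exon was not a property of the lincRNAs alone, since 63.8% of the 5622 placed genes that reached the same mean, and 65.6% of the protein-coding ones, had one too. Of the 268, 145 lay opposite an exon of a protein-coding gene, against 215 of all 3763 lincRNAs.

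**Figure D1:**
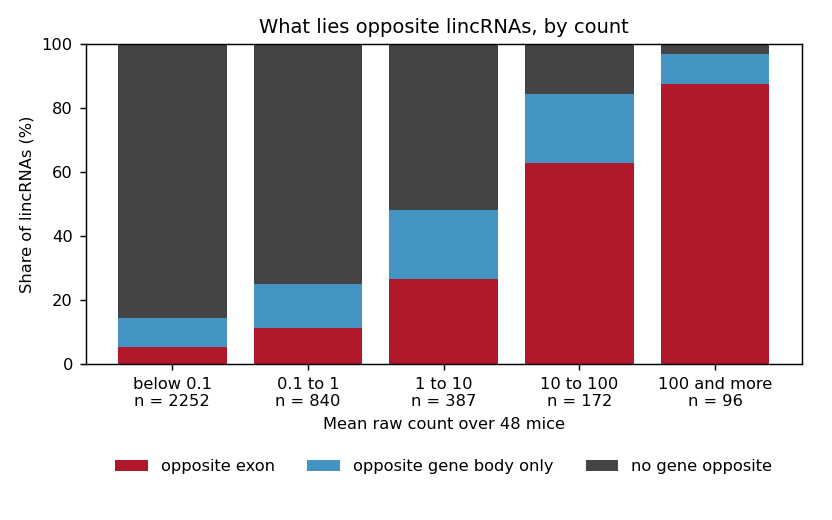
Share of lincRNAs (%, stacked bars) that lie opposite an exon, opposite a gene body only or opposite no gene, in 5 classes of mean raw count over the 48 mice, with the number of lincRNAs under each bar. The share with an opposite exon goes from 5.55% in the lowest class to 87.5% in the highest. LincRNAs left out by name are not in the bars.

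The overlap was often large. For 21 lincRNAs, every exonic base lay opposite an exon. The lincRNA model lay within the span of its main opposite gene in 90 cases, held that gene within it in 19, met it tail to tail in 31 and head to head in 52. Over the 145 lincRNAs with a protein-coding gene opposite, 40.8% of the 138900 shared bases lay in 3′ UTRs and 27.3% in coding sequence. By majority of the shared bases, 38 of these lincRNAs lay opposite a 3′ UTR, 50 opposite coding sequence and 40 opposite a 5′ UTR.

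The lincRNAs with the most opposite bases were Gm26786, Gm26883, Gm26702, Gm26751 and Gm26819. Gm26786 shared all of its 6243 exonic bases, nearly all with the zinc finger gene Zfp90, and had 117 to 334 counts per mouse where Zfp90 had a mean of 0.146. It also shares 21 bases with Prmt7, which had a mean of 83.7 counts. Gm26883 shared 5076 of 5115 bases with Tshz2, which encodes a zinc finger transcription factor, and had 321 to 958 counts against a mean of 1.56 for Tshz2. Gm26702 shared all 4570 bases with Ajm1 and had 279 to 886 counts. The mean of Ajm1 was 1.73 counts, so that the lowest mouse of each of these 3 lincRNAs was far above the mean of the gene with which it shares most bases. Gm26751 lay over 4245 bases opposite Nynrin and had 74 to 204 counts, and Gm26819 lay over 4168 of 5128 bases opposite Med10, a subunit of the Mediator complex, and had a median of 369 counts and at most 558, against a mean of 0.0417 for Med10.

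Counts of a lincRNA and of its main opposite gene were compared for all lincRNAs with an opposite exon except 4 whose main opposite gene is not listed in the table. The lincRNA had the higher mean count in all but 7 of these pairs, and at least 10 times that of the opposite gene in 139. The median of the mean counts was 84.3 for the lincRNAs and 2.04 for the opposite genes, 69 of which stayed below a mean of 1 count. Because the lincRNAs were chosen by their counts and the opposite genes were not, this difference is given as a description. The 7 exceptions were Malat1, Ftx, AI480526, Gm26518, Gm26521, Gm26599 and Gm28258.

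**Figure D2:**
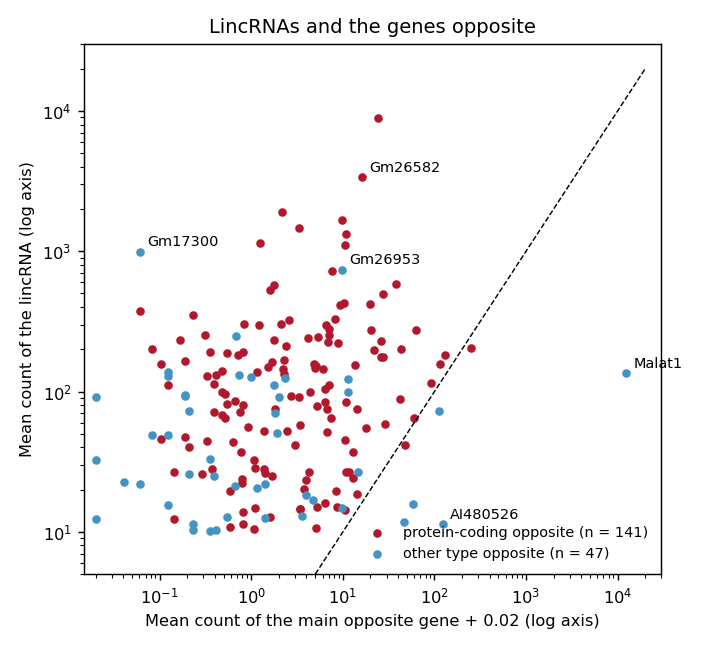
Mean raw count of each lincRNA (vertical, log axis) against that of its main opposite gene plus 0.02 (horizontal, log axis) for each pair, coloured by the type of the opposite gene, with equal counts on the dashed line. All but 7 points lie above the line, and Malat1 lies farthest below it.

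Known lncRNAs lay on either side of such pairs. Malat1, Miat, Meg3, Snhg3 and Ftx had fewer counts than the genes opposite, whereas Xist and Tug1 had more. Malat1 had 10 to 277 counts per mouse with a median of 131, whereas Gm37376, a gene of 453 bases whose whole length lies opposite Malat1, had 3205 to 20336. Gm26953, opposite Miat over 2260 bases, had 355 to 987 counts, whereas Miat, a nuclear lncRNA of neurons, had 2 to 25. The counts of each of these pairs did not overlap over the 48 mice. Gm26906, which lies over its full 1228 bases opposite the imprinted Meg3, had 63 to 190 counts and Meg3 0 to 2. Gm17300 had 355 to 1599 counts and Snhg3 0 or 1. Ftx, a lincRNA of the X inactivation centre, had 4 to 22 counts, and the 4 small genes opposite its exons had means of 18.6 to 80.2 counts. Xist had 2 to 33 counts with a median of 10, the highest in mouse 7 of Tph2-/- C, and its antisense partner Tsix had a mean of 0.208. Tug1, typed as antisense, had 15 to 85 counts and Morc2a opposite 0 to 9. Further studied lncRNAs that GENCODE types otherwise than as lincRNA also reached a mean of 10 counts, namely Dnm3os with 140.9, Dlx1as with 81.6, Firre with 27.8, Mir99ahg with 11.98 and Snhg11 with 11.3. Among studied lincRNAs that did not were Neat1 with 0.521, Snhg6 with 1.60 and Pantr1 with 1.71.

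At 1 locus both sides were among the 268. AI480526, with 3 to 22 counts per mouse, lies opposite 4932422M17Rik, with 72 to 191 counts, and opposite Gm38102, with 50 to 139 counts. All of the counts of both opposite lincRNAs were above those of AI480526.

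Levels were compared between lincRNAs as counts per 1000000 scaled counts and kilobase of exon (CPM per kb, mean over the 48 mice). They ran from 0.822 for Xist to 15073 for Gm26723 with a median of 42.0, and the 10 lincRNAs with the most counts held 47.9% of all counts on the 268. Gm26723 had 4382 to 11883 counts per mouse. The next levels were 1440 CPM per kb for Gm39214, opposite Itfg1, and 1434 for Gm26582, opposite the stress granule protein gene G3bp2. These 2 levels differed by less than the coefficient of variation (CV) between mice of a group, 6.71% and 7.28%. Gm26882, opposite the chromatin factor gene Morf4l1, had 1272, and Gm17300, opposite Snhg3, had 852 CPM per kb. Then came Gm26718 with 697 opposite Pgam5, which encodes a mitochondrial phosphatase, Gm14329 with 618 opposite coding sequence of the NMDA receptor subunit gene Grin2b, Gm17275 with 601 opposite the histone gene H3f3a, Gm26722 with 544 opposite Rbbp4 and Gm26762 with 475 opposite Gpi1, which encodes the glycolytic enzyme glucose-6-phosphate isomerase.

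**Figure D3:**
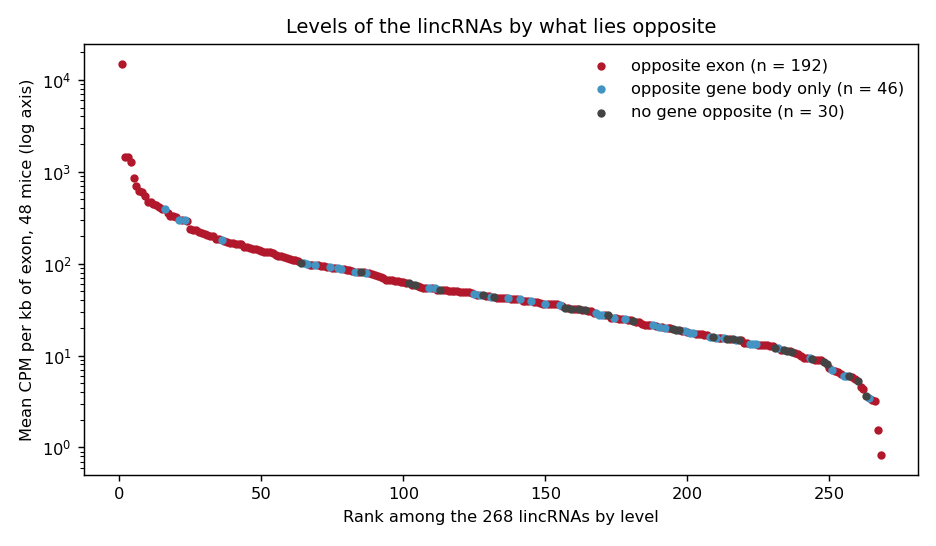
Mean CPM per kb of exon over the 48 mice (log axis) of the 268 lincRNAs in order of level, coloured by what lies opposite. Of the 50 highest, 46 lie opposite an exon, and the highest with no gene opposite, Gm26981, is at 102.8 CPM per kb.

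The median level was 50.7 CPM per kb for the lincRNAs opposite an exon, 28.4 for the 46 opposite a gene body only and 18.9 for the 30 with no gene opposite. The first class held 92.6% of the counts on the 268. The highest lincRNA with no gene opposite was Gm26981 with 102.8 CPM per kb and 102 to 369 counts per mouse, and the highest opposite a gene body only was Gm37027 with 393 CPM per kb and 41 to 98 counts.

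The gene models also differed from those of other lincRNAs. GENCODE marks 127 of the 268 (47.4%) as annotated automatically, against 2.75% of the 3492 lincRNAs below the threshold, and 118 of the 268 had a name from Gm26500 to Gm26999. The exonic length had a median of 1969 bases against 1017. The letters AATAAA, the usual signal for polyadenylation, were searched in the last 50 bases of the longest transcript, and TTTATT, their reverse complement, in the first 50. Of the lincRNAs opposite an exon, 48 (25%) ended with AATAAA in this window and 27 (14.1%) began with TTTATT. Of the 76 others, 38 (50%) and 3 (3.95%) did, and of the lincRNAs below the threshold 30.6% and 1.66%. These matches are descriptions of letters and not of used sites.

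Most of the 268 were even across mice. The CV of the CPM between the 8 mice of a group (median of the 6 groups) had a median of 19.7%, where counting error alone gives a median of 13.4%. The CV was under 1.5 times the counting error for 157 lincRNAs. At low counts this limit is wide, since the counting error is itself large, and 64 of the 268 had a mean below 20 counts. In 4 lincRNAs 1 mouse exceeded 3 times the median: Gm16548 with 58 counts in mouse 7 of Tph2-/- C against a median of 7.5, Gm26821 with 124 against 37.5, 4930526F13Rik with 34 against 11 and Xist with 33 against 10. Gm16548, which shares 438 bases with the P-selectin gene Selp and 262 with F5, the gene of coagulation factor V, and was named after its values were seen, had the largest CV, 99.9%.

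Differences among the 6 groups were small. In whole tissue, fewer cells of a type and less RNA per cell cannot be told apart. In the edgeR quasi-likelihood test over 5644 genes, a gene was called at a nominal p below 0.01 and, where 2 sides were contrasted, an absolute log2 fold change (lg2FC) above 0.2. No lincRNA had a Benjamini-Hochberg adjusted p below 0.05 in any of the 8 comparisons (of all genes, 6 did among the 6 groups, 2 for genotype under C and 0 in the other comparisons), but some did under other settings. The set without mouse 8 of Tph2+/- MS, the highest of its group for Gm26798, was added after the values were seen. In that set 1 lincRNA (0.373%) had such an adjusted p among the 6 groups, against 0.726% of all genes. For the interaction of MS with the heterozygous genotype 2 (0.746%) did, against 1.68% of all genes. In a fit to the C groups alone 1 did for genotype under C, against 0.691% of all genes. With no filter on low counts 6 (2.24%) did among the 6 groups, against 0.763% of 32234 genes, and 1 or 2 in a further 5 comparisons, against 0.0403% to 0.503%. These shares are not alike, since the 268 all have a mean of at least 10 counts and the 32234 genes include those below it. In an earlier fit to all genes with a count, standard errors were far below the spread between mice, so this setting was kept only as an alternative. The edgeR nominal p of Gm26798 among the 6 groups was 0.000436 with the filter and 2.87e-12 without it. With the filter and all mice, 16 of the 268 (5.97%) were called in at least 1 of the 8 comparisons, against 7.34% of all genes. Among the 6 groups as a whole, 3 lincRNAs were called (1.12%) where 2.52% of all genes were, and 18 (6.72%) had a nominal p below 0.05, against 7.49% of all genes. With DESeq2 in place of edgeR 3 were called as well, against 2.59% of all genes. Without mouse 8 of Tph2+/- MS 5 were called (1.87%), against 3.19% of all genes.

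The 3 called among the 6 groups with all mice and the filter were Gm26798, Gm16499 and Gm2061. Gm26798 lies within Ppp6r2, a gene of a regulatory subunit of protein phosphatase 6, on the opposite strand at chr15:89211559-89215012 and shares 221 bases with its 5′ UTR exons. Its CPM had a lowest, median and highest value of 69.1, 88.3 and 126 in Tph2+/+ mice under C, and of 79.1, 129.3 and 240.9 after MS. Heterozygous mice had 80.9, 134 and 244.7 under C, and 70.8, 87.6 and 183 after MS. Homozygous mice had 56.6, 86.7 and 102.96 under C, and 66.5, 102.8 and 152 after MS. The ranges of all 6 groups overlapped, and the highest mice were in Tph2+/+ MS and Tph2+/- C. Its p among the 6 groups was 0.000436 (edgeR, adjusted p = 0.0967).

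Gm16499, which lies head to head with Tril, a gene of a Toll-like receptor accessory protein, averaged 75.1 ± 11.1 CPM in Tph2+/+ C and 100 ± 25.6 in Tph2+/+ MS (SD, n = 8 each). Heterozygous mice averaged 99.4 ± 29.6 under C and 90.3 ± 26.4 after MS, and homozygous mice 71.9 ± 18.9 and 79.5 ± 11.7 (edgeR adjusted p = 0.391). Its group means had their highest values in the same 2 groups as those of Gm26798. Gm2061, head to head with the manganese transporter gene Slc30a10, averaged between 26.9 ± 6.64 CPM in Tph2-/- C and 42.5 ± 9.84 in Tph2+/+ MS (SD, n = 8 each, edgeR adjusted p = 0.318). Without the 7 C mice with the highest animal numbers, none of these 3 was called, with edgeR nominal p of 0.0299, 0.106 and 0.0793 for Gm26798, Gm2061 and Gm16499. All MS mice have animal numbers below those of these 7 and above those of the other C mice. Leaving the 7 out therefore does not separate rearing from animal number. Without the 4 libraries rich in Gm42418, Gm2061 and Gm16499 were not called either.

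**Figure D4:**
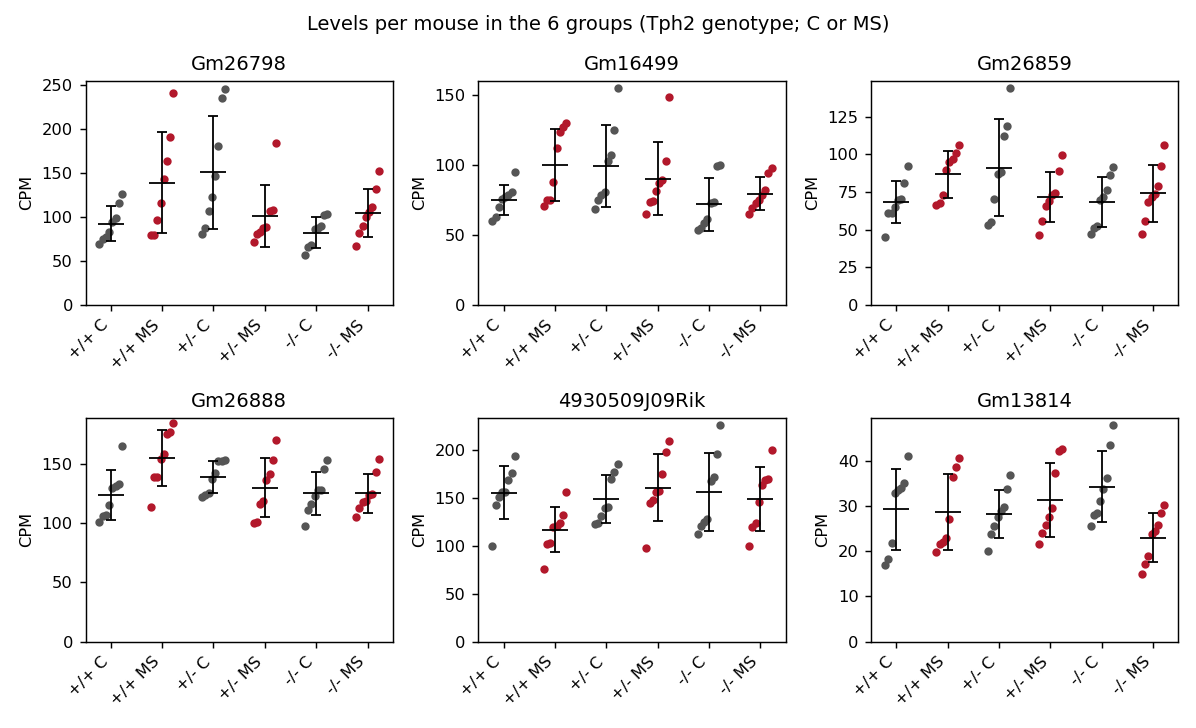
CPM per mouse (points; grey C, red MS) in the 6 groups of 8 mice, with mean (bar) and SD (whiskers), for 6 lincRNAs called in at least 1 comparison. The groups overlap in every panel; Gm26798 has its highest mice, at 240.9 and 244.7 CPM, in Tph2+/+ MS and Tph2+/- C.

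Maternal separation was compared with C within each genotype. C and MS mice come from separate stretches of animal numbers, so effects of rearing and of these stretches cannot be told apart. In Tph2+/+ mice 3 of the 268 were called (1.12%), against 3.03% of all genes. In a fit to these 2 groups alone 8 were called (2.99%, all genes 3.17%), and without mouse 8 of Tph2+/- MS 5 (1.87%, all genes 3.30%). Gm26888, opposite coding sequence of Tbc1d16, a gene of a Rab GTPase-activating protein, rose from 123 ± 20.9 to 155 ± 23.8 CPM (SD, n = 8 each), a lg2FC of 0.33 ± 0.11 (SE, edgeR adjusted p = 0.225). Gm26798 had a lg2FC of 0.59 ± 0.21 (SE, edgeR adjusted p = 0.281). The ranges of MS and C mice overlapped for both. 4930509J09Rik, which shares no exonic base with another gene, fell from 155 ± 27.5 to 117 ± 23.6 CPM, a lg2FC of -0.42 ± 0.14 (SE, edgeR adjusted p = 0.266). Without the 7 C mice with the highest animal numbers, Gm26798 and 4930509J09Rik were not called (lg2FC 0.57 and -0.39, edgeR nominal p of 0.0177 and 0.0101), and without the 4 libraries rich in Gm42418 Gm26888 was not called (lg2FC 0.32, nominal p of 0.0110).

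In Tph2+/- mice 1 lincRNA was called (0.373%), against 0.780% of all genes: Gm26798, with 150 ± 63.8 CPM in C and 101 ± 35.6 in MS (SD, n = 8 each), a lg2FC of -0.57 ± 0.21 (SE, edgeR adjusted p = 0.999). This call rested on the samples and settings used. Its lg2FC was -0.43 (edgeR nominal p of 0.0605) without the 7 C mice with the highest animal numbers and -0.53 (0.0169) with a replicate block, and neither fit called a lincRNA. Without mouse 8 of Tph2+/- MS, the highest of its group and left out after the values were seen, it was -0.75 (0.000561). That set and the one without the 4 libraries rich in Gm42418 gave 3 calls each (1.12%), against 1.91% and 1.12% of all genes. In Tph2-/- mice 1 lincRNA was called in the fit to all mice (0.373%), against 0.815% of all genes. It was Gm13814, which meets the lincRNA Gm13817 tail to tail over 116 bases and fell from 34.4 ± 7.89 to 23.0 ± 5.47 CPM, a lg2FC of -0.57 ± 0.18 (SE, edgeR adjusted p = 0.891). Without the 7 C mice the number called in Tph2-/- mice was 5 (1.87%), against 0.992% of all genes in the same fit.

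The interactions of genotype and separation were named GE1, the MS effect in Tph2+/- minus that in Tph2+/+, and GE2, the MS effect in Tph2-/- minus that in Tph2+/+. Both share the Tph2+/+ mice. For GE1, 4 lincRNAs were called (1.49%), against 3.31% of all genes, and all 4 had a negative lg2FC, as had 152 of the 187 genes called. Gm26798 had a lg2FC of -1.16 ± 0.29 (SE, edgeR adjusted p = 0.0752). Its p before adjustment was 0.000242. Gm26859, a lincRNA within Syt7, the gene of a synaptic calcium sensor, had -0.70 ± 0.24 (SE, edgeR adjusted p = 0.237). It averaged 68.3 ± 14.1 CPM in Tph2+/+ C and 86.9 ± 15.7 in Tph2+/+ MS, but 91.2 ± 32.1 in Tph2+/- C and 71.8 ± 16.9 in Tph2+/- MS (SD, n = 8 each). Gm26888 had -0.42 ± 0.15 and 1810012K08Rik, opposite Tmem250-ps, which GENCODE types as lincRNA too, -0.56 ± 0.21 (SE, edgeR adjusted p = 0.266 and 0.281). Without mouse 8 of Tph2+/- MS the number called was 11 (4.10%), against 4.64% of all genes in that fit, and 2 of the 11, Gm26798 and 1810012K08Rik, had an edgeR adjusted p below 0.05. Without the 4 libraries rich in Gm42418 it was 8 (2.99%), against 3.65% of all genes. Gm26888 was not called without these 4 libraries (lg2FC -0.40, edgeR nominal p of 0.0206), nor were Gm26859 and 1810012K08Rik without the 7 C mice (lg2FC -0.66 and -0.53, nominal p of 0.0175 and 0.0240).

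For GE2 0 lincRNAs were called, against 0.567% of all genes, while 9 (3.36%, against 3.77% of all genes) had a nominal p below 0.05 in edgeR and DESeq2 called 0 too. Without the 7 C mice with the highest animal numbers 3 were called (1.12%), against 0.850% of all genes. The smallest p was that of Gm26711, opposite 5′ UTR exons of Fbrsl1, with a lg2FC of -0.67 ± 0.28 (SE, edgeR adjusted p = 0.999). Gm26798 had a lg2FC of -0.24 ± 0.29 (SE) for GE2.

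**Figure D5:**
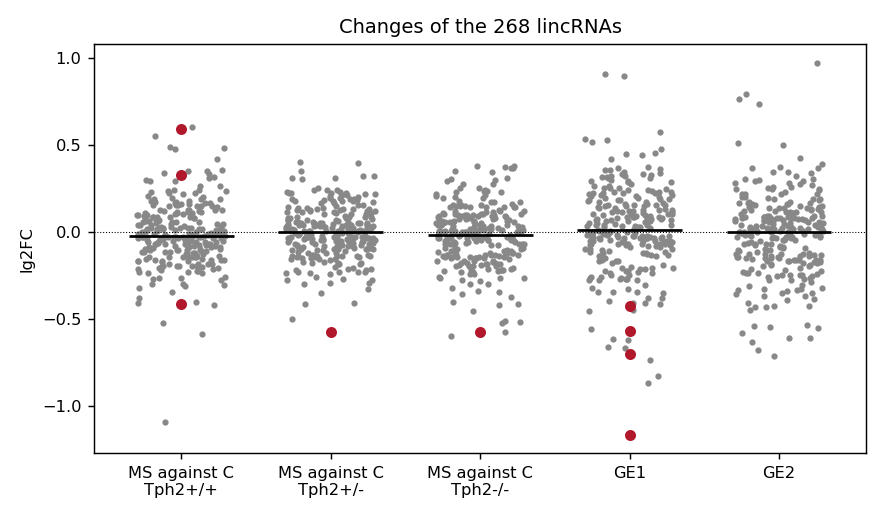
lg2FC of the 268 lincRNAs (points) for MS against C in each genotype and for GE1 and GE2, with the median as a bar and the called lincRNAs in red. The medians lie between -0.02 and 0.01, and the 4 lincRNAs called for GE1 are all below 0.

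The medians of the lg2FC were close to 0 in each contrast, -0.02 in Tph2+/+, 0.00 in Tph2+/-, -0.02 in Tph2-/-, 0.01 for GE1 and 0.00 for GE2, and those of all genes lay between -0.01 and 0.01. The SE of a lincRNA had a median of 0.14 to 0.15 for an MS effect and 0.21 for an interaction. An interval of 2 SE on either side of the lg2FC stayed within -1 and 1, which is less than a 2-fold change, for 260 lincRNAs in Tph2+/+, 267 in Tph2+/- mice, and for 237 and 240 in GE1 and GE2. Gm26723 was among these, with 11936 ± 743 CPM in Tph2+/+ C and 11480 ± 850 in Tph2+/+ MS (SD, n = 8 each) and a lg2FC of -0.06 ± 0.08 (SE). Malat1 had an SE of 0.33 for the MS effect in each genotype, and its lg2FC of -0.57 in Tph2-/- mice was not called (edgeR adjusted p = 0.891).

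Genotypes were compared within each rearing condition. Under C 4 lincRNAs were called (1.49%), against 2.57% of all genes. These were Gm26798 (edgeR adjusted p = 0.118), Gm26744, Gm16499 and Gm19710. Gm26744, which has no exon opposite, averaged 25.4 ± 10.3 CPM in Tph2+/+ C, 28.1 ± 7.03 in Tph2+/- C and 17.8 ± 5.10 in Tph2-/- C (SD, n = 8 each, edgeR adjusted p = 0.242). Without the 7 C mice with the highest animal numbers, Gm26798 and Gm16499 were not called (nominal p of 0.0305 and 0.123). Without the 4 libraries rich in Gm42418, Gm26744, Gm16499 and Gm19710 were not called (0.0148, 0.0153 and 0.0496), and Gm19710 was not called in DESeq2 either (0.0143).

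After MS 7 lincRNAs were called (2.61%), against 1.45% of all genes, and their edgeR adjusted p values were 0.598 or higher. The 3 with the smallest p were 4930526F13Rik, Gm42787 and 4930583P06Rik. 4930526F13Rik averaged 10.9 ± 4.46 CPM in Tph2+/+ MS, 15.2 ± 3.50 in Tph2+/- MS and 20.6 ± 10.1 in Tph2-/- MS (SD, n = 8 each). Gm42787 averaged 9.25 ± 3.59, 16.8 ± 4.76 and 14.2 ± 3.86 CPM in the same order. Both are near the threshold of 10 counts, and 3 counts correspond to between 3.19 and 7.89 CPM depending on the library. 4930583P06Rik had 36.1 ± 12.9, 21.2 ± 7.21 and 27.5 ± 12.9 CPM. The other 4 were 4930509J09Rik, Gm26883, Gm17315 and E330013P04Rik, and with a fit to the MS groups alone 2 lincRNAs were called (0.746%), against 1.01% of all genes. Gm26883, opposite Tshz2, averaged 851 ± 215 CPM in Tph2+/+ MS, 646 ± 178 in Tph2+/- MS and 625.5 ± 159 in Tph2-/- MS. Without the 4 libraries rich in Gm42418, Gm26883, 4930583P06Rik and 4930509J09Rik were not called (edgeR nominal p of 0.0556, 0.0201 and 0.0186). E330013P04Rik was not called in 7 alternatives, among them those without mouse 8 of Tph2+/- MS (0.0171), without the 7 C mice (0.0137) and with the DESeq2 test (0.0125) or size factors (0.0104).

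Of the 16 lincRNAs called in at least 1 comparison, 11 lie opposite an exon, 3 opposite a gene body only and 2 opposite no gene (of all 268, 71.6%, 17.2% and 11.2%). Whether the lincRNA or the gene opposite gave the counts was not tested.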

How the data were processed

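Total RNA of the amygdala tissue of 48 mice was sequenced by the authors as stranded paired-end reads of 125 bases and aligned with GRCm38.p5. The submitters' processing notes name STAR, HTSeq and DESeq2, and the annotation release and the strand setting of the counting are not given in the sources used here. The deposited values are raw counts per gene, with 609489 to 6296568 counts on genes per library, and the 5 entries of the counter that name no gene were left out of all sums. Shares and floors cover counting error only.

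Genes were placed with GENCODE M21 on GRCm38 (48058 of 48440 IDs matched). Opposite exons were exons of another gene on the other strand with at least 1 shared base. Counts were tested in edgeR 4.0.16 (R 4.3.3) with TMM scaling and the quasi-likelihood F-test, 1 coefficient per group, over the 5644 genes with a mean of at least 10 counts, Lars2 left out, and Benjamini-Hochberg adjustment over all of them. CPM are per 1000000 TMM-scaled counts on these genes. All tests were two-sided, and litters, which the labels do not give, were not modelled. The script was tested on simulated data. Alternatives were no filter, filterByExpr, size factors or the test of DESeq2 1.42.0, a replicate block, other sets of libraries and a fit to the groups compared only.

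Named lincRNAs were the 10 highest by CPM per kb, up to 3 with the smallest p per comparison, the 5 with most opposite bases, the ones nearest the count threshold and known lncRNAs; further ones called were named after their values were seen. The members and lists were chosen with earlier results of these data known. Among the 168 pairs of mice within a group no library was a duplicate of another: the smallest chi-square per degree of freedom was 1.55. Pairs of mice from different groups were not compared in this way. The gene opposite 1 lincRNA is not reported here.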

Additional observations from a re-analysis of the deposited data

Results flagged for a closer look

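In 4 of 72 groups looked at (12 lincRNAs in 6 groups of 8 mice), the highest mouse stood apart from the other 7 by more than Dixon's 95% limit for 8 values, where chance alone gives about 5% of groups. Gm26798 had 183 CPM in mouse 8 of Tph2+/- MS, with the others at 70.8 to 108. Gm16499 had 149 CPM in the same mouse, with the others at 65.0 to 103.3. 4930526F13Rik had 41.9 CPM in mouse 4 of Tph2-/- MS, with the others at 11.5 to 25.1, and Gm42787 had 23.1 CPM in mouse 2 of Tph2+/- C, with the others at 8.27 to 14.4.

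The MS effect differed between Tph2+/- and Tph2+/+ mice by the nominal test of the interaction for 4 lincRNAs (1.49%, against 3.31% of all genes). They were Gm26798 (lg2FC -1.16), Gm26859 (-0.70), Gm26888 (-0.42) and 1810012K08Rik (-0.56). None of the 4 passed an adjusted p of 0.05 in edgeR with all mice and the filter on low counts, while 2 of them, Gm26798 and 1810012K08Rik, did without mouse 8 of Tph2+/- MS, and 1 lincRNA did with all mice and no filter.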

How the results depend on the processing

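Numbers of lincRNAs called moved by over 1.5 times as follows. With no filter on low counts they were 18 among the 6 groups, 8 for GE1, 2 for GE2, 7, 3 and 5 for MS in Tph2+/+, Tph2+/- and Tph2-/-, and 14 and 11 for genotype under C and after MS, where 1.81%, 1.64%, 0.890%, 1.55%, 0.763%, 0.760%, 1.62% and 1.27% of 32234 genes were called in the same order. Without the 4 libraries rich in Gm42418 there were 8 for GE1 and 3 for MS in Tph2+/- (all genes 3.65% and 1.12%), and without the 7 C mice with the highest animal numbers there were 3 for GE2, 0 for MS in Tph2+/- and 5 in Tph2-/- (all genes 0.850%, 0.496% and 0.992%). A fit to the groups compared only gave 8 for MS in Tph2+/+, 0 in Tph2+/- and 2 for genotype after MS (all genes 3.17%, 0.797% and 1.01%). The legacy and the robust quasi-likelihood fit, added after seeing the data, gave 0 for MS in Tph2+/- (all genes 0.744% and 0.726%), and the legacy fit 2 for genotype under C (2.30%). Without mouse 8 of Tph2+/- MS, also added after seeing the data, there were 5 among the 6 groups, 11 for GE1, 5 for MS in Tph2+/+ and 3 in Tph2+/- (all genes 3.19%, 4.64%, 3.30% and 1.91%). The single call for MS in Tph2+/- (Gm26798) was lost in the fit with a replicate block (0 called, all genes 0.567%). The cause of these shifts was not tested, except that an alternative with fewer mice tests fewer samples.

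The block moved no other number by over 1.5 times. It kept 19 of 24 results for single lincRNAs on their side of the threshold; Gm26798 for MS in Tph2+/+ (edgeR nominal p of 0.0124), Gm16499 among the 6 groups (0.0110), Gm19710 for genotype under C (0.0133) and E330013P04Rik after MS (0.0125) were not called with it either. The replicate numbers do not pair the mice: same-numbered mice of different groups had a median correlation of deviations of 0.002 (-0.38 to 0.32, 120 pairs), and 8 of 48 mice correlated best with their own number. Of 24 results for single lincRNAs, filterByExpr kept the direction and side of the threshold of 24, DESeq2 size factors of 23, the DESeq2 test of 22 and the set without the 7 C mice of 12, the fewest, and none of these 24 that is a contrast changed sign in any alternative. The number opposite an exon moved by less than 1.5 times with coding genes only (145) or a median of 10 counts (190). Counts near 10 per mouse limit the precision of the lowest lincRNAs.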
